A study of Mus musculus with 16 samples.

Results

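Histone genes were followed in the cochleae of DBA/2J mice, an inbred strain that loses hearing progressively from a young age. Members were the genes whose array symbol, current or older, begins with Hist and a cluster number followed by h, or with H2af, H3f3 or H1f, on probes assigned to a single gene. This gave 24 genes, read by 35 probes, of 18193 genes with such a probe. The array annotation carries newer names, under which only 8 of the 24 begin with these letters, so the older names were matched through RefSeq. Replication-dependent histones (the former Hist genes) made up 11 members and replacement histones 13.

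The mice were male and were untreated at 4 weeks of age (5 arrays), at 12 weeks of age after 8 weeks of daily subcutaneous vehicle, 0.1 M sodium bicarbonate (control, 5 arrays), or at 12 weeks of age after the same period of L-methionine (MET, 500 mg/kg) and valproic acid (VPA, 300 mg/kg) in that vehicle (M+V, 6 arrays). Each of the 16 Affymetrix mouse genome arrays held the whole left cochlea of 1 mouse. MET feeds the methyl donor pool and VPA inhibits histone deacetylases. The comparison of M+V with control asks what treatment changed at 1 age, and that of control with 4 weeks holds age together with the vehicle injections. VPA and MET were given together, so their effects cannot be told apart.

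Histones are the proteins around which DNA is wound. Replication-dependent histone genes lie in clusters, are transcribed mainly in S phase, and mostly give mRNAs that end in a stem-loop rather than a poly(A) tail. Replacement histones are mostly made throughout the cell cycle from polyadenylated mRNAs. They are the supply of new histone for cells that no longer divide, such as hair cells and neurons of the cochlea. The classes used here follow the older gene names, and single members can depart from this outline. Labelling of RNA for this kind of array usually starts from the poly(A) tail, so that signal of a replication-dependent gene comes mainly from any transcripts that carry one.

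Upstream sequence differed between the classes in the letters of common promoter motifs. Promoter entries were found in RefSeq (GRCm38.p6) for 20 of the 24 genes, and the 250 bases before each start were searched on both strands. All 9 replication-dependent promoters held CCAAT, against 6 of 11 replacement promoters and 33.8% of all 32851 promoters of the same length. TATAAA or TATATA, which can overlap, was found in 7 of the 9, in 1 of the 11 and in 15.6% of all. ATTTGCAT, the octamer known from H2B promoters, was held by 2 replication-dependent genes (H2aw and H2bc18), 1 replacement gene (H3f3b) and 1.60% of all promoters, and AAACACA, known from linker histone promoters, by H1f2, H1f4, H1f6 and H3f3a and by 6.25% of all. GGGCGG was found in 3 of the 9, 6 of the 11 and 32.7% of all.

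The upstream regions of H1f2, H2aw and H2az1 are shown because they stand for the linker, core and replacement histones described below. They run 5′ to 3′ on the plus strand and end at the base before the start. Capitals mark the 6 motifs searched, on either strand. The regions are chr13:23738557-23738806 for H1f2, chr11:58954435-58954684 for H2aw and chr3:137864237-137864486 for H2az1. H1f2 and H2aw hold CCAAT and TATATA, and H2az1 holds CCAAT and GGGCGG with neither TATA form.
H1f2: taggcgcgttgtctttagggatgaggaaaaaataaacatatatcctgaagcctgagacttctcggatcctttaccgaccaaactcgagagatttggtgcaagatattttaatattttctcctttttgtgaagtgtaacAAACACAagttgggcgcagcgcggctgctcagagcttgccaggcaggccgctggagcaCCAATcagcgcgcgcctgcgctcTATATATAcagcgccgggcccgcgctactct
H2aw: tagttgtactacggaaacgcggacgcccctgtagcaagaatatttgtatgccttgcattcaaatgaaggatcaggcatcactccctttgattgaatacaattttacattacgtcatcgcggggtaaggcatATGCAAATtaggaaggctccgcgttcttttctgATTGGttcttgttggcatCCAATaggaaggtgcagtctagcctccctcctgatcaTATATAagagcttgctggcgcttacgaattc
H2az1: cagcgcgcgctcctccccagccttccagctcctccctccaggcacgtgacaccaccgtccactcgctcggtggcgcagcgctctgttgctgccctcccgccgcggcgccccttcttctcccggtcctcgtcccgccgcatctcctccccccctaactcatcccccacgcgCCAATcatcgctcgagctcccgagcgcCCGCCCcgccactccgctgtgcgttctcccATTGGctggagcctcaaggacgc

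The arrays were not alike in ways outside the groups. Labelled bacterial spike-in RNA (bioB) differed between arrays. It was at 8.91 to 9.62 on the log2 scale in all 4 weeks arrays, control replicate 1 and M+V replicates 1 and 2. In the other 8 it was at 5.73 to 6.08, so this split is shared unequally by the groups. Comparisons with 4 weeks that allow for the split rest on the 1 control and 2 M+V arrays with high signal. Without M+V replicate 1 they rest on 1 of each. M+V replicate 1 stood apart by its erythroid and marrow B cell genes. The mean of 6 erythroid genes was 4.46 there and 10.83 to 11.66 in the other M+V arrays. That of 7 marrow B cell genes was 6.64 against 8.95 to 10.08. The same array was the lowest of all 16 for stria vascularis markers (9.98, against 10.98 to 11.73 in the other M+V arrays) and for those of the spiral ligament and limbus (13.25, against 13.76 to 14.26). Its hair cell markers (8.08, against 7.82 to 8.21) and neutrophil markers (13.44, against 12.66 to 13.44) were not low. The labelled tissue was checked by its markers: those of the spiral ligament and limbus had list means of 13.25 to 14.26, the lowest being that of M+V replicate 1, and only 2 of 5 hair cell markers were bright enough to test. In whole cochleae, fewer cells of a type and less RNA per cell cannot be told apart.

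Values are log2 signals. A probe was tested where no array of 1 or more groups had it under that array's median, and a gene was read from its brightest probe. Of the 24 histone genes 13 were tested. They were the linker histone H1f2, the core histones H2ac19, H2aw, H2bc21 and H2bc22, and the replacement histones H2aj, H2ax, H2az1, H2az2, Macroh2a1, Macroh2a2, H3f3a and H3f3b. Of these, 12 reached the median in all 3 groups and H3f3b in 2. A gene was called when its limma p, adjusted over all tested probes, was under 0.05.

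No histone gene was called in any of the 3 comparisons. For M+V against control 0 of 13 were called, where the share over all 11450 tested genes was also 0%. For control against 4 weeks 0 of 13 were called against 1.45% of all tested genes (0.402% higher and 1.05% lower), and for M+V against 4 weeks 0 of 13 against 4.93% (2.52% higher and 2.41% lower). Each of these shares comes to less than 1 gene in a list of 13. Unadjusted limma p was under 0.05 for 0 of 13 (8.83% of all genes) in the first comparison, 1 of 13 (13.9%) in the second and 1 of 13 (22.1%) in the third. The groups overlapped for every tested histone gene in each comparison, where 0.900%, 5.93% and 5.08% of all tested genes did not overlap.

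The differences were small as well as uncalled. The median log2 difference of the 13 genes was 0.02 for M+V against control, -0.03 for control against 4 weeks and -0.02 for M+V against 4 weeks, beside 0.02, 0.01 and 0.03 over all tested genes. Single genes ran from -0.24 to 0.22, from -0.37 to 0.21 and from -0.41 to 0.27 in the same order. The 95% intervals reached 0.17 to 0.53 to either side over all 39 differences. Changes smaller than that could not have been called with these numbers of arrays. Larger ones could be missed too, because the intervals take no account of the adjustment over all probes. A missed threshold does not show that levels were equal. The median SD within groups was 0.21 for the histone genes and 0.21 for all tested genes.

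**Figure D1:**
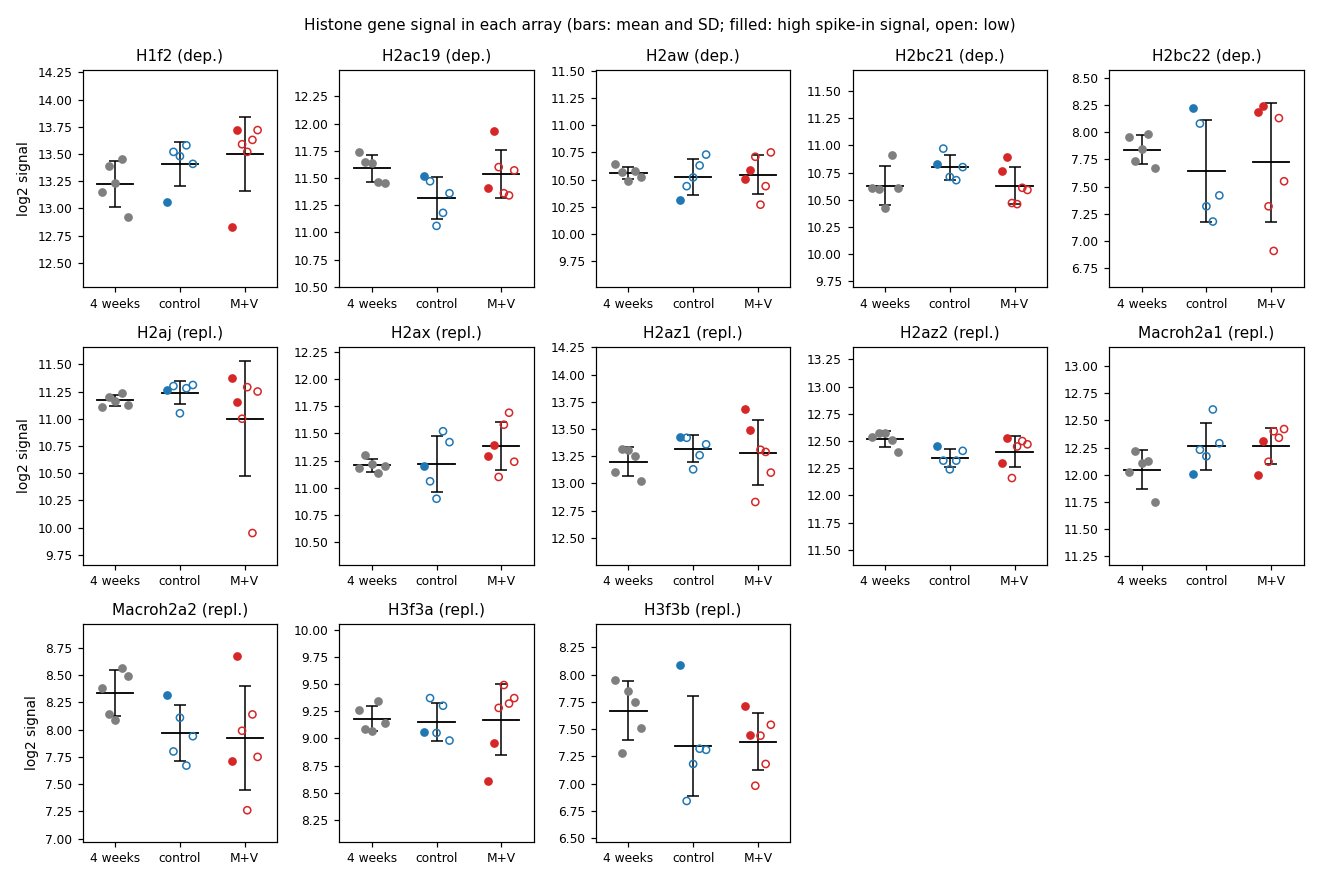
Log2 signal of the 13 tested histone genes (vertical axis, the same span of 2 in each panel) in each array of the 3 groups; dep. marks replication-dependent and repl. replacement genes. Points are arrays, filled where spike-in signal was high and open where it was low, and bars give the mean and SD; the groups overlap for every gene, and 1 M+V array lies at 9.95 for H2aj.

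Replication-dependent and replacement genes are given side by side. The 5 tested replication-dependent genes had median differences of 0.08 for M+V against control, -0.03 for control against 4 weeks and -0.02 for M+V against 4 weeks. The 8 tested replacement genes had medians of 0.01, -0.01 and -0.06. Averaged per array as a deviation from each gene's mean, replication-dependent genes ran from -0.13 to 0.11 at 4 weeks, from -0.15 to 0.13 in control and from -0.26 to 0.31 in M+V. Replacement genes ran from -0.04 to 0.12, from -0.14 to 0.10 and from -0.19 to 0.12. The groups overlapped in both classes, and the M+V arrays spread the widest. Both ends of the replication-dependent range were M+V arrays, replicate 2 at the top and replicate 4 at the bottom.

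H1f2, a linker histone that binds DNA between nucleosomes, was the gene whose call depended on 1 array. Its signal at 4 weeks was 13.15, 13.39, 13.23, 13.45 and 12.92, and in control it was 13.06, 13.52, 13.48, 13.58 and 13.41. In M+V it ran from 12.83 to 13.72 with a median of 13.61. Of the 6 M+V arrays 5 lay above all 4 weeks arrays. M+V replicate 1, the array with low erythroid, B cell, stria vascularis and spiral ligament markers, lay below them. M+V was higher than 4 weeks by 0.27 (95% interval -0.05 to 0.60, limma adjusted p = 0.307). Without M+V replicate 1 the difference was 0.41 and passed the test (adjusted p = 0.0413), with no share over all genes beside it. With the spike-in split in the model it was 0.02 with that array (adjusted p = 0.951) and 0.27 without it (adjusted p = 0.368). Among the high spike-in arrays alone, 2 of them M+V, it was 0.05. The part of the spike-in split, the erythroid and B cell genes and the cochlear markers in this difference was not tested. Against control M+V was higher by 0.09 (-0.23 to 0.42), and control was higher than 4 weeks by 0.18 (-0.16 to 0.52), which turned to -0.12 with the split in the model. A further tested probe of H1f2 gave 0.15 for M+V against 4 weeks.

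H2ac19, a core H2A gene, was the tested histone gene nearest to the threshold for control against 4 weeks. Its signal was 11.74, 11.65, 11.64, 11.46 and 11.45 at 4 weeks and 11.52, 11.47, 11.06, 11.18 and 11.36 in control. In M+V it ran from 11.34 to 11.93 with a median of 11.49. Control lay mostly below 4 weeks with an overlap of a few arrays, and M+V overlapped both. The difference of control from 4 weeks was -0.27 (-0.53 to -0.02, limma adjusted p = 0.328), and it was -0.09 with the spike-in split in the model. M+V differed from control by 0.22 (-0.03 to 0.46, adjusted p = 0.561) and by 0.20 among the low spike-in arrays. The probe behind these values is one whose design allows cross-matching to similar transcripts. The same holds for the probes read for H2aw, H2bc21, H2bc22 and Macroh2a2, so for 5 of the 13 tested genes. H2bc22 and Macroh2a2 had no other probe assigned to them alone. The other probe of H2ac19 gave 0.08 for control against 4 weeks and 0.25 for M+V against control. For M+V against 4 weeks it gave 0.33 (0.02 to 0.65, limma adjusted p = 0.203), where the brightest probe gave -0.06. The probes of H2ac19 thus differed in sign in both comparisons with 4 weeks.

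The other tested core histone genes were not called either. H2aw, a core H2A gene, was at 10.56 ± 0.06 (SD, n = 5) at 4 weeks, 10.53 ± 0.16 (n = 5) in control and 10.55 ± 0.18 (n = 6) in M+V on its brightest probe, with differences of 0.02, -0.03 and -0.02 for M+V against control, control against 4 weeks and M+V against 4 weeks. Its other tested probe gave 0.00, 0.23 and 0.23. Among the high spike-in arrays alone, which hold only 1 control array, the brightest probe gave -0.25 for control against 4 weeks. H2bc21, a core H2B gene, was at 10.63 ± 0.18 (n = 5), 10.80 ± 0.12 (n = 5) and 10.63 ± 0.17 (n = 6). M+V differed from control for H2bc21 by -0.17 (-0.38 to 0.05, limma adjusted p = 0.594), and by -0.26 among the low spike-in arrays. Control differed from 4 weeks for H2bc21 by 0.17, and by 0.32 with the spike-in split in the model (adjusted p = 0.259). The other tested probe of H2bc21 gave -0.07 (-0.27 to 0.13) for M+V against control and 0.11 for control against 4 weeks. H2bc22, another H2B gene, ran from 7.67 to 7.98 at 4 weeks, from 7.18 to 8.22 in control and from 6.91 to 8.24 in M+V. The 3 highest values of H2bc22 were in control and M+V arrays with high spike-in signal. Low spike-in arrays differed from high ones for H2bc22 by -0.73 with the groups in the model (limma adjusted p = 0.0643), and control differed from 4 weeks by -0.19 without the split in the model and by 0.39 with it. Neither value was called.

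**Figure D2:**
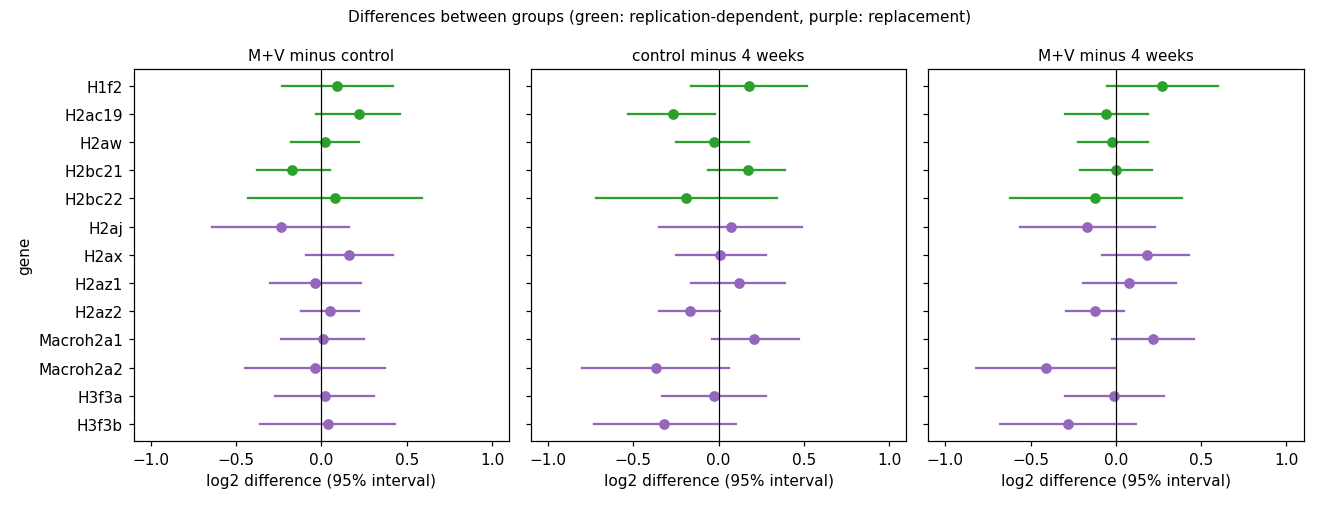
Log2 difference between groups (horizontal axis) with its 95% interval for each tested histone gene (vertical axis), one panel per comparison; replication-dependent genes are green and replacement genes purple. The intervals cross 0 except for H2ac19 in control minus 4 weeks (-0.27) and Macroh2a2 in M+V minus 4 weeks (-0.41), and none of the differences passed the adjusted test.

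Among the replacement histones, macroH2A proteins carry a large extra domain and mark silent chromatin, and neither of their tested genes was called. Macroh2a2 was at 8.38, 8.14, 8.09, 8.57 and 8.49 at 4 weeks and at 8.32, 7.80, 8.11, 7.67 and 7.94 in control. In M+V it ran from 7.26 to 8.68 with a median of 7.87. Both older groups lay lower on average and overlapped 4 weeks, and the highest value of all was an M+V array. M+V differed from 4 weeks by -0.41 (-0.82 to -0.00, limma adjusted p = 0.225) and control by -0.37 (-0.80 to 0.06, adjusted p = 0.447), 2 comparisons that share the 4 weeks arrays. With the spike-in split in the model these were -0.13 and -0.03, and without M+V replicate 1 as well they turned to 0.16 and 0.16. Macroh2a1 was at 12.05 ± 0.18 (SD, n = 5), 12.26 ± 0.22 (n = 5) and 12.27 ± 0.17 (n = 6). Its control and M+V arrays exceeded 4 weeks by 0.21 (-0.04 to 0.47) and 0.22 (-0.02 to 0.46), and by 0.04 and 0.07 with the split in the model (0.09 and 0.15 without M+V replicate 1 as well).

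H2A.Z genes encode a variant found beside transcription start sites. H2az1 was at 13.20 ± 0.13 (SD, n = 5), 13.32 ± 0.13 (n = 5) and 13.28 ± 0.30 (n = 6), and its difference between M+V and control was -0.04 (-0.30 to 0.23), and -0.20 on its other tested probe. Control differed from 4 weeks for H2az1 by 0.12 and M+V by 0.08, and with the spike-in split in the model by 0.38 (limma adjusted p = 0.238) and 0.30 (adjusted p = 0.162). H2az2 was at 12.54, 12.57, 12.57, 12.51 and 12.40 at 4 weeks and at 12.45, 12.32, 12.24, 12.32 and 12.41 in control, and it ran from 12.16 to 12.53 in M+V. Control lay below 4 weeks apart from an overlap at the edge. Control differed from 4 weeks for H2az2 by -0.17 (-0.35 to 0.01, limma adjusted p = 0.384). An exact two-sided permutation test of that difference gave p = 0.0238, the lowest of 39 such tests, of which 3 were under 0.05; the limma fit adjusted over all probes is the test reported. The other probe of H2az2 gave 0.00.

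H2aj, an H2A variant gene, varied little at 4 weeks and in control and more in M+V. Its signal was 11.11 to 11.24 at 4 weeks and 11.05 to 11.31 in control. In M+V 5 arrays lay from 11.00 to 11.37, and M+V replicate 5 was at 9.95. M+V differed from control by -0.24 (-0.64 to 0.16, limma adjusted p = 0.699), and by -0.03 without that array. H2ax, whose protein is phosphorylated at DNA breaks, was at 11.21 ± 0.06 (SD, n = 5), 11.22 ± 0.25 (n = 5) and 11.38 ± 0.22 (n = 6), with a difference between M+V and control of 0.16 (-0.09 to 0.42).

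H3f3a and H3f3b encode the same H3.3 protein, the replacement form of H3. H3f3a was at 9.18 ± 0.11 (SD, n = 5), 9.15 ± 0.17 (n = 5) and 9.17 ± 0.33 (n = 6). H3f3b was at 7.67 ± 0.27 (n = 5), 7.35 ± 0.46 (n = 5) and 7.38 ± 0.26 (n = 6). M+V differed from control by 0.02 (-0.27 to 0.31) for H3f3a and by 0.04 (-0.36 to 0.43) for H3f3b. These probes were dim beside 5 probes shared by 6 H3.3 symbols, which lie outside the member rule and had group means of 13.28 to 14.46. The shared probes differed between M+V and control by -0.23 to -0.06, uncalled (lowest limma adjusted p = 0.476). Low spike-in arrays differed from high ones by 0.41 for H3f3a (limma adjusted p = 0.0699) and by -0.53 for H3f3b (adjusted p = 0.0950), both uncalled. With the split in the model control differed from 4 weeks by -0.35 for H3f3a (-0.03 without it) and by 0.11 for H3f3b (-0.32 without it), and M+V differed from 4 weeks by -0.28 (-0.01 without it) and by 0.07 (-0.28 without it). Between low and high spike-in arrays, the unadjusted limma p was under 0.05 for 5 of the 13 genes, or 38.5%. That share was 21.3% for all tested genes, and 0 of 13 were called beside 2.95%.

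The 11 untested genes were H1f4, H1f6, H2bc18, H3c4, H3c7 and H3c11 among replication-dependent genes and H1f7, H1f8, H1f10, H2al2a and Macroh2a3 among replacement genes. Several are known from germ cells, such as the testis linker histones H1f6 and H1f7 and the oocyte linker histone H1f8. Shares over all genes are given here for the filtered fit only. In a fit without the filter 0 of the 11 were called, a count with no such share beside it. The one nearest to the threshold was H3c7, a core H3 gene. Its signal was 5.67, 5.83, 6.23, 6.38 and 4.93 at 4 weeks, 5.96, 5.57, 5.95, 6.48 and 6.19 in control and 6.13 to 6.63 in M+V. M+V exceeded 4 weeks for H3c7 by 0.59 (0.09 to 1.08, limma adjusted p = 0.269), with an overlap of the groups.

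Many histone mRNAs are too alike for a probe to tell apart, and 27 further probes carry the symbols of several histone genes and lie outside the member rule. Of these, 19 were tested. Over all 21391 tested probes, 445 were called higher and 684 lower for M+V against 4 weeks. Of the 19 shared probes 1 was called, in that comparison, which is close to the share over all probes. It is shared by 10 H2A genes, and its signal was 14.28, 14.44, 14.33, 14.40 and 14.12 at 4 weeks, 14.16, 14.19, 13.98, 14.26 and 14.20 in control and 13.67 to 14.16 with a median of 13.94 in M+V. M+V lay at the low end and control between, and all groups overlapped. M+V differed from 4 weeks by -0.37 (-0.57 to -0.17, limma adjusted p = 0.0319), from control by -0.22 (-0.41 to -0.02, adjusted p = 0.480), and control from 4 weeks by -0.15 (-0.36 to 0.05, adjusted p = 0.527). The value of M+V against 4 weeks was called in 16 of 30 alternatives and was below 0 in all 30, from -0.42 to -0.26. The call was lost without 4 weeks replicate 1, 2, 3 or 4 or M+V replicate 5 or 6 (adjusted p = 0.0542 to 0.0827), and with the spike-in split in the model (-0.31, adjusted p = 0.113).

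Shared probes of the other families were not called. A probe shared by 13 H4 genes was higher in M+V than at 4 weeks by 0.48 (0.14 to 0.82, limma adjusted p = 0.0897). It was higher in M+V than in control by 0.35 (0.01 to 0.69, adjusted p = 0.498), and in control than at 4 weeks by 0.13. Another probe shared by 13 was higher in M+V than at 4 weeks by 0.36 (adjusted p = 0.248). For that probe the other 2 differences were 0.05 and 0.31 in the same order. The 5 probes shared by 6 H3.3 symbols differed between M+V and 4 weeks by -0.26 to -0.11, and the one at -0.26, whose groups did not overlap, missed the threshold (adjusted p = 0.0557). A probe shared by 2 macroH2A genes differed between control and 4 weeks by -0.48 (adjusted p = 0.0983). For this probe M+V differed from control by 0.36 (0.09 to 0.63, limma adjusted p = 0.458) and from 4 weeks by -0.12. Low spike-in arrays differed from high ones by -0.29 there (limma adjusted p = 0.193).

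**Figure D3:**
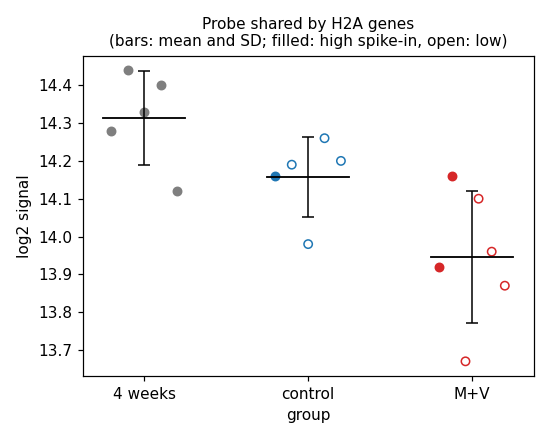
Log2 signal (vertical axis) of the probe shared by 10 H2A genes in each array of the 3 groups. Points are arrays, filled for high and open for low spike-in signal, and bars give the mean and SD; M+V arrays lie from 13.67 to 14.16, below most of the 4 weeks arrays at 14.12 to 14.44.

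Genes that make, carry and deposit histones were also read from lists. For histone mRNA maturation 0 of 10 tested genes were called in each comparison, and the median differences were -0.06 for M+V against control, 0.03 for control against 4 weeks and -0.02 for M+V against 4 weeks. Cpsf2, a subunit of the machinery that cuts histone mRNA ends, differed between M+V and 4 weeks by -0.32 (limma adjusted p = 0.0755). For histone chaperones and variant loading 0 of 19 were called, with medians of -0.08, 0.03 and -0.00. Asf1a, a chaperone that hands over H3 and H4, differed between M+V and 4 weeks by -0.35 (adjusted p = 0.0616).

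For DNA replication and cell cycle 0 of 24 tested genes were called, with medians of -0.15, 0.03 and -0.15. For M+V against control 22 of these 24 and 17 of the 19 chaperone genes were below 0, against 5161 of 11450 tested genes. Mki67, a marker of cycling cells, differed between M+V and control by -0.42 (limma adjusted p = 0.509), and Pcna, the replication clamp, by -0.14 (adjusted p = 0.760). The replication list was lowest in M+V replicates 3 and 1 (list means 10.53 and 10.63), and ran from 11.18 to 11.57 in the other M+V arrays. All 6 erythroid and 7 B cell markers were below 0 in M+V against control too, uncalled, with medians of -1.49 and -0.68. These medians include M+V replicate 1, whose list means were 4.46 and 6.64. The other M+V arrays were at 10.83 to 11.66 and 8.95 to 10.08, and control at 11.32 to 12.03 and 9.53 to 10.14. The 5 tested brain tissue markers were below 0 against control (median -0.51) and against 4 weeks (median -0.37), uncalled, with list means of 8.61 to 10.30 in M+V, 9.22 to 10.36 in control and 9.64 to 10.12 at 4 weeks. All 8 neutrophil markers were above 0 against 4 weeks in both older groups (2 of 8 called higher in control and 5 of 8 in M+V, list means 11.94 to 12.73 at 4 weeks and 12.66 to 13.44 in M+V), where 0.402% and 2.52% of all tested genes were called higher. All 6 osteoblast and cartilage markers were below 0 against 4 weeks in control and in M+V (medians -1.11 and -1.35), and 5 of 6 were called lower in each, beside 1.05% and 2.41% of all tested genes. None of the markers was at the floor in all arrays. The part of these cell types in the histone values was not tested.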

How the data were processed

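The deposited values are log2 signals, per the file headers and the study's methods made with GCOS and MAS5 (versions not given in the sources used here) and then quantile-normalised; sorted values were identical across the 16 arrays and the median was 6.90. Signals under 1 were set to 1 (0.869% of values). Probes (45101, with 64 controls left out) were named through the array annotation; 34958 had 1 symbol, 932 several and 9211 none. All 16 arrays entered a single linear model of the 3 groups in limma 3.58.1 in R 4.3.3 (lmFit, contrasts.fit, eBayes) over 21391 probes that lay at or above the 50th percentile of each array in 1 or more groups. Two-sided p-values were adjusted over these probes (Benjamini-Hochberg, threshold 0.05); fits without the filter serve untested genes. The script was tested on simulated data. Replicates are separate mice, and precision is limited by their number. Genes named were the tested replacement and linker histones, replication-dependent genes by unadjusted p, and up to 4 genes a list; members and lists were chosen with earlier results of these data known. H3c7 and the shared H2A probe were singled out after their values were seen. The residuals of arrays with the same number correlated by a median of 0.0126 over 15 pairs, 6 of them over 0.1, so numbers were not used as pairs. Alternatives were other scalings, floors, filters and probe choices, the methods' t-test, only 2 groups, array weights, a replicate block, the spike-in split as a block or alone, a Gapdh covariate and each array left out.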

Additional observations from a re-analysis of the deposited data

Results flagged for a closer look

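An array far from the others of its group was found in 3 of 39 sets (13 genes in 3 groups), where chance flags about 1 in 20. H1f2 was at 12.83 in M+V replicate 1, with the nearest M+V array at 13.52. H2aj was at 9.95 in M+V replicate 5, with the nearest at 11.00, and its remaining probes, which were too dim to test, were at 6.24 and 2.11 in that array. H2aj was also at 11.05 in control replicate 3, with the nearest control array at 11.26.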

How the results depend on the processing

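Counts of called histone genes were recomputed 96 times over 33 alternatives. They stayed at 0 except for M+V against 4 weeks without M+V replicate 1, where H1f2 made the count 1. Leaving out each array gave 0 to 1 for that comparison and 0 for the others. Among the alternatives, calls over all tested genes were counted for the methods' t-test only, so the other counts have no share beside them. Of 186 recomputed class medians, 9 moved by more than their spread between arrays. For replication-dependent genes, control against 4 weeks gave 0.17 with no filter, 0.17 with a filter at the 25th percentile and 0.15 without probes of shared design, and M+V against 4 weeks gave 0.25 without such probes. For replacement genes, M+V against 4 weeks gave 0.04 with a filter at the 75th percentile and 0.04 with the spike-in split in the model. Without M+V replicate 1 and with that split in the model, an alternative chosen after seeing the data, the medians were 0.26 for replication-dependent genes in M+V against 4 weeks, 0.12 for replacement genes there and 0.10 for replacement genes in control against 4 weeks. The cause of these moves was not tested. Of 1230 recomputed gene differences 109 took the other sign and 1 was called. With the replicate number as a block the count stayed at 0 in each comparison, the class medians ran from -0.09 to 0.05, and the shared H2A probe in M+V against 4 weeks was at -0.35 (limma adjusted p = 0.0554), no longer called. The methods' t-test was run on probes chosen by the array median, not by the methods' present calls. At the methods' own cutoffs (a fold over 1.5 with an unadjusted p under the usual threshold) it passed 0 of 13 histone genes in each comparison. Of all 11450 tested genes it passed 54 for M+V against control, 259 for control against 4 weeks and 383 for M+V against 4 weeks. After Benjamini-Hochberg adjustment 0 of 13 passed in each comparison, beside 0, 111 and 143 of all tested genes.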
